A study of Mus musculus with 31 samples.

Results

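A set of 10 genes of the spindle assembly checkpoint and the centromere was followed in mouse uterus: Mad2l1, Mad1l1, Bub1, Bub1b, Bub3, Ttk, Cenpa, Cenpe, Cenpf and Aurkb. They were chosen by name, as every probe that the array annotation assigns to 1 of these 10 symbols, out of 35019 gene names on the array. All 10 had a probe, and 6 of them were bright enough to test (Mad2l1, Mad1l1, Bub3, Bub1b, Cenpa and Cenpe), among 27060 genes tested in all. The uterine RNA came from ovariectomised mice of 2 lines, with the mutant called KO and its wild type WT in each. There were AF2 KO mice given 17β-estradiol (E2) with 3 arrays and given placebo with 4, AF2 WT mice given E2 or placebo, MISS KO mice given E2 or placebo and MISS WT mice given E2 or placebo, with 4 arrays in each of these other groups. All mice lost their ovaries at 4 weeks of age, were kept for 3 weeks on normal chow, and were studied 6 h after castor oil with 8 µg/kg of E2 or with none of it (placebo). The mice are C57BL6/J in the AF2 line and C57BL6/N in the MISS line. As background from outside the labels, AF2 mutants make an estrogen receptor α that lacks activation function 2, the surface that recruits coactivators when hormone binds, and MISS mutants make a receptor that is missing from the cell membrane. Both mutations are carried by every cell of the mouse, so the data do not say in which uterine cells the receptor acted.

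The spindle assembly checkpoint holds a dividing cell in metaphase until every chromosome is attached to the spindle. At an unattached kinetochore, the kinase encoded by Ttk (MPS1) recruits BUB1 and BUB3, and MAD1 (Mad1l1) then converts MAD2 (Mad2l1) into the form that, with BUBR1 (Bub1b) and BUB3, blocks the anaphase-promoting complex. The kinetochore is built on chromatin that carries the histone H3 variant CENP-A (Cenpa), the kinesin CENP-E (Cenpe) moves chromosomes along microtubules, CENP-F (Cenpf) is a large kinetochore and microtubule protein, and Aurora B (Aurkb) corrects wrong attachments. Most of these genes are transcribed mainly in late S phase, G2 and mitosis. In the uterus of ovariectomised rodents, E2 is known to start a wave of epithelial division that follows hours after the first changes in RNA.

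The sequences before the start sites of 5 of the tested genes are shown because their RNAs moved in opposite directions after E2, as described further on. They are RefSeq promoters on GRCm38.p6, from 250 bases before to 50 bases after the start site, 5′ to 3′ on the strand of the gene. The short motifs below were searched on both strands, and every match is in capitals: CHR (TTTGAA or TTCGAA, reverse TTCAAA), an element of late cell cycle genes, CCAAT (reverse ATTGG), and GGTCA (reverse TGACC), the half-site of the estrogen response element. None of the marked matches overlaps another.
Mad2l1: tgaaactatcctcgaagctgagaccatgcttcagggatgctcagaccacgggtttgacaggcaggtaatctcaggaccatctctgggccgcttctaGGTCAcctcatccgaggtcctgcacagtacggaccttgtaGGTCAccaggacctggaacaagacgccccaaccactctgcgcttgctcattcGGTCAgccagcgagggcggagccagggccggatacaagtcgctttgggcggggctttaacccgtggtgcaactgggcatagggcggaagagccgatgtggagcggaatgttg
Bub3: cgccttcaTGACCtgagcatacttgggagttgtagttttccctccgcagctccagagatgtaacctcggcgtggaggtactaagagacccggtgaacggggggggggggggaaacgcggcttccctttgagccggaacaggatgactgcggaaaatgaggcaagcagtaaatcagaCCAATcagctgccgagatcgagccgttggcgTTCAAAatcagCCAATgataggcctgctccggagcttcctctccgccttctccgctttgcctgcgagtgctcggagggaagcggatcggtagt
Bub1b: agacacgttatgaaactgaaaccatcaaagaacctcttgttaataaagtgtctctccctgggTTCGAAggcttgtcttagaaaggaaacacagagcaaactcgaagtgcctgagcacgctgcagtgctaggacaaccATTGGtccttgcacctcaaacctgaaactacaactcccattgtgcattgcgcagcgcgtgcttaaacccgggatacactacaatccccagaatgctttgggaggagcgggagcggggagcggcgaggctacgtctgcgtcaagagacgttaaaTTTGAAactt
Cenpa: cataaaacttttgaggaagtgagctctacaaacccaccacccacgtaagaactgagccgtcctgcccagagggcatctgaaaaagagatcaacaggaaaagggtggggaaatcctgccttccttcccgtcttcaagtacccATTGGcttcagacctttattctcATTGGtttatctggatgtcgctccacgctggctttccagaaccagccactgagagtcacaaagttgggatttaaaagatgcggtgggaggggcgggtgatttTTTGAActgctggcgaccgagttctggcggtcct
Cenpe: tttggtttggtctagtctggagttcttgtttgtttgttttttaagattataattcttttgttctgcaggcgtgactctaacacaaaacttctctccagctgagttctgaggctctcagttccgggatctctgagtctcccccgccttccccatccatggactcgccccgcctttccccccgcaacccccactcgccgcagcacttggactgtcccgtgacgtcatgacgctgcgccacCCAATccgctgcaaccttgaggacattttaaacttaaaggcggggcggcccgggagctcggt
The positions are chr6:66534971-66535270 for Mad2l1, chr7:131560120-131560419 for Bub3, chr2:118597961-118598260 for Bub1b, chr5:30666636-30666935 for Cenpa and chr3:135212313-135212612 for Cenpe, all on the plus strand.

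Promoters were given for 9 of the 10 members, with 2 start sites each for Mad1l1 and Bub3. The Mad2l1 window held no CHR and no CCAAT, and 3 copies of GGTCA, whose first bases lie 154, 114 and 62 bases before the start. Ttk also held 3 copies of GGTCA, beside 1 CHR match and 2 CCAAT, and the 2 windows of Mad1l1, whose RNA rose too, held no CHR, no CCAAT and 1 and 0 copies of GGTCA. At least 3 copies of GGTCA were present in 2.35% of the 32851 promoters of the table, and at least 1 copy in 40.5%. Bub1b held 2 CHR matches and 1 CCAAT, and Cenpa 1 CHR match, 17 bases after the start, with 2 CCAAT. Cenpe held 1 CCAAT and no CHR, while Bub3, whose RNA rose with E2, held 1 CHR match, 2 CCAAT and 1 GGTCA in the window shown. The window of its other start site held the same CHR and CCAAT matches and no GGTCA. CHR was present in 19.2% of all promoters, CCAAT in 37.4%, and both in 7.52%, against 6 of the 9 members with a promoter (Bub1, Bub1b, Bub3, Cenpa, Cenpf and Ttk). The percentages count promoter windows, while the members are counted as genes, with 2 windows each for Mad1l1 and Bub3. GGTCA followed by TGACC with 3 bases between them was found in no member, and in 0.0700% of all promoters. These matches are descriptions of the windows, and no binding was measured.

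Each array's 75th percentile of the processed signal lay between 532 and 1033 intensity units, and 62.7 to 77.6% of its spots were well above background. All levels below are log2 intensities relative to that percentile. Esr1, the gene of estrogen receptor α, averaged 2.77 ± 0.12 in AF2 KO E2 mice and 3.03 ± 0.30 in AF2 WT E2 mice (SD, n = 3 and 4), and 2.76 ± 0.08 in AF2 KO placebo mice and 3.26 ± 0.12 in AF2 WT placebo mice (n = 4 each). In the MISS line it averaged 3.04 ± 0.28 in MISS KO E2 mice and 2.65 ± 0.12 in MISS WT E2 mice, and 3.09 ± 0.09 in MISS KO placebo mice and 3.03 ± 0.12 in MISS WT placebo mice (n = 4 each). Of these comparisons of KO with WT, the one called was the lower level in AF2 KO under placebo (−0.49 ± 0.13, adjusted p = 0.0118 by limma). It is not known whether its probe lies in the changed part of the gene, so these levels do not check the genotypes. The probes of the tested members besides Mad2l1 lie, on mm9, at chr5:140484643-140484702 on the minus strand for Mad1l1, and on the plus strand at chr7:138712221-138714437 for Bub3, chr2:118466830-118466889 for Bub1b, chr5:30974916-30975386 for Cenpa and chr3:134936387-134936446 for Cenpe. The spans of Bub3 and Cenpa exceed the 60 bases of a probe, as those of probes over an exon junction do, and the place of the other probes within their genes was not analysed here. Marker lists of the uterine compartments were high on every array, with list means of 5.37 to 6.76 for smooth muscle, 3.37 to 4.96 for stroma and 1.53 to 2.52 for epithelium, against −1.35 to 0.04 for markers of ovary and oviduct. The 31 arrays were on 4 slides that each held 1 array of every group, except that the second slide had none of AF2 KO E2. A single array stood apart in several members: MISS WT E2 replicate 4 had the lowest Mad2l1 and the highest Mad1l1 and Cenpa of its group, and without it all 6 calls in MISS WT kept their direction, with 4.91 for Mad2l1, 0.75 for Mad1l1 and −2.31 for Cenpa. Titles give each sample a number of its own, or a shared number with a letter that sets it apart. No label says that samples are single animals, so p-values measure the spread between these samples.

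E2 moved the tested genes in opposite directions in 3 of the 4 genotypes. Mad2l1, Mad1l1 and Bub3 rose and Bub1b, Cenpa and Cenpe fell in AF2 WT, in MISS KO and in MISS WT mice, while none of the 6 was called in AF2 KO mice, where 0 of 6 also passed an unadjusted p under 0.05. Calls required an adjusted p under 0.05 (limma, Benjamini-Hochberg over all 27060 genes). The 3 higher and 3 lower calls among 6 genes are to be read against a strong background, since 26.6% of all genes were called higher and 31.2% lower with E2 in AF2 WT, 28.9% and 28.4% in MISS KO, and 33.5% and 28.1% in MISS WT. In AF2 KO the background was 3.52% higher and 0.447% lower. The median change of the 6 genes says little because they split by direction. In bulk tissue, fewer cells of a type and less RNA per cell cannot be told apart.

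**Figure D1:**
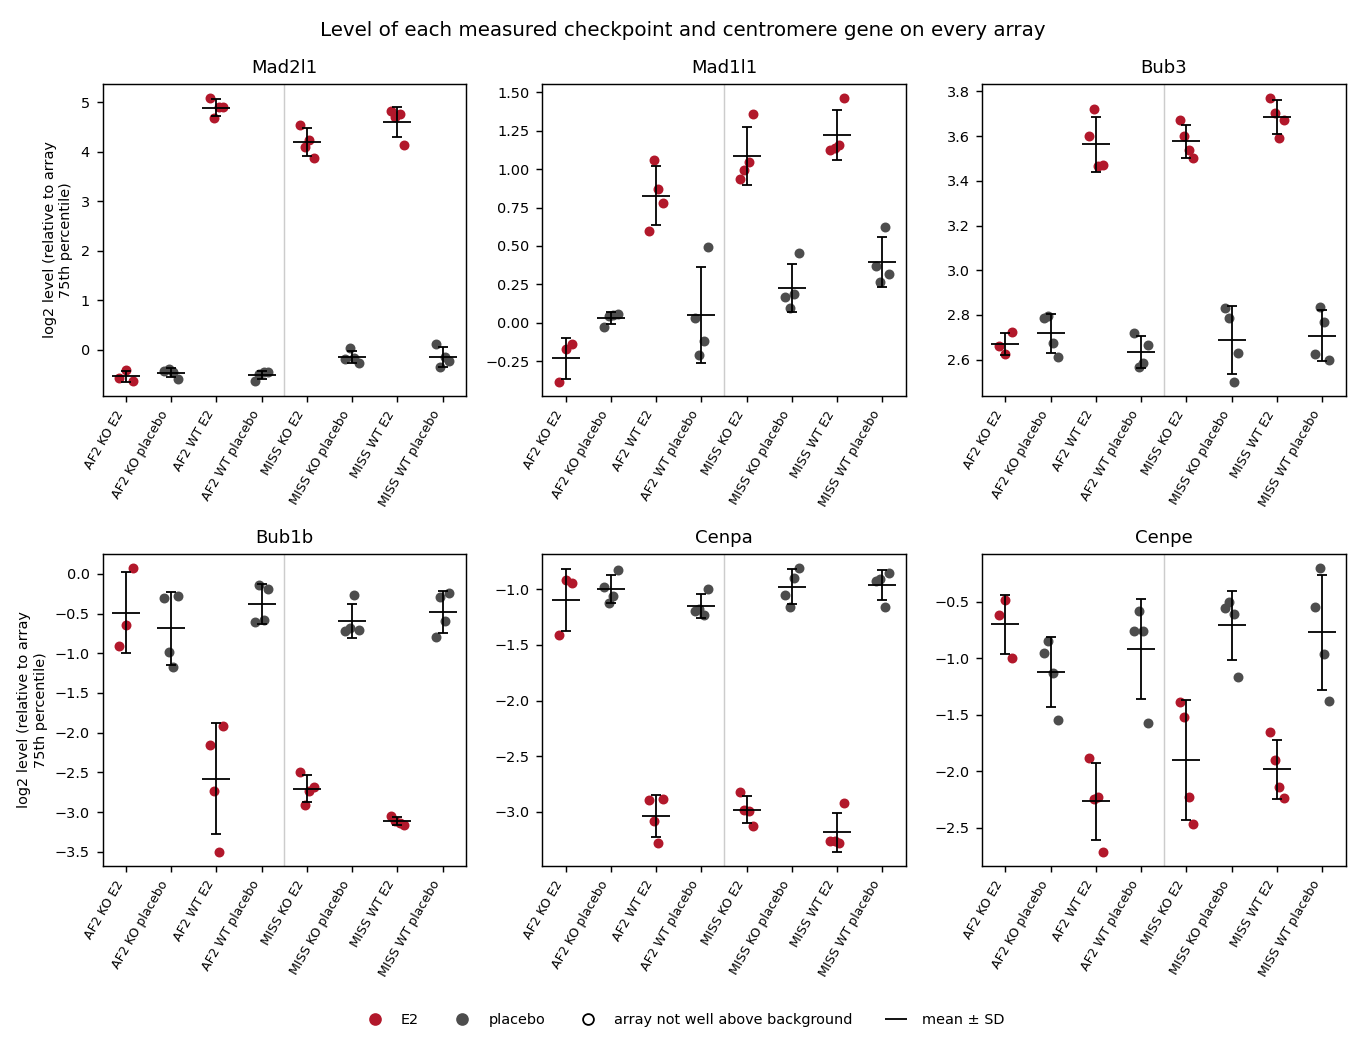
Log2 level (relative to the 75th percentile of the array, y axis) of the 6 tested genes on each of the 31 arrays (points), by group (x axis, E2 left of placebo and KO left of WT), with the mean and SD of the group. In AF2 KO the E2 arrays overlap with their placebo arrays in 5 genes and lie below them, by 0.11, in Mad1l1, and in the other 3 genotypes the E2 arrays of each gene lie apart from their placebo arrays.

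Mad2l1, the checkpoint protein that is converted at unattached kinetochores and inhibits the anaphase-promoting complex, showed the largest change of the 6. In AF2 KO mice its levels were −0.63, −0.57 and −0.42 with E2, against −0.60, −0.46, −0.43 and −0.39 with placebo. In AF2 WT mice they were 4.67, 4.90, 4.90 and 5.09 with E2, against −0.64, −0.50, −0.46 and −0.45 with placebo. The E2 and placebo arrays overlapped in AF2 KO and lay 5.13 log2 units apart in AF2 WT. MISS KO mice had 3.87, 4.10, 4.24 and 4.54 with E2, against −0.27, −0.20, −0.16 and 0.03 with placebo. MISS WT mice had 4.15, 4.70, 4.75 and 4.82 with E2, against −0.35, −0.23, −0.14 and 0.12 with placebo. Every E2 array of the MISS line was thus above every placebo array, and the lowest MISS WT E2 array lay within the range of the MISS KO E2 arrays.

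The change of Mad2l1 with E2 was −0.07 ± 0.15 in AF2 KO (SE, adjusted p = 0.876 by limma, 95% interval −0.37 to 0.23). It was 5.40 ± 0.14 in AF2 WT, a 42.4-fold rise that ranked 30 among 27060 genes (adjusted p = 1.32e-20). In MISS KO it was 4.34 ± 0.14, or 20.3-fold (adjusted p = 6.26e-19), and in MISS WT 4.75 ± 0.14, or 27.0-fold (adjusted p = 7.85e-20), with ranks of 70 and 69. Ordered by mean level, AF2 WT E2 (4.89) was followed by MISS WT E2 (4.60) and MISS KO E2 (4.19), whose arrays overlapped with those of the neighbouring group. All 5 other groups, the placebo groups and AF2 KO E2, averaged between −0.54 and −0.15.

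In all, 3 probes measured Mad2l1, all on the plus strand of chromosome 6 of mm9. The brightest (A_55_P2133255) lies at chr6:66490836-66490895, and the others at chr6:66490067-66490126 (A_55_P2138333) and chr6:66490355-66490414 (A_55_P2179296). Their changes with E2 were −0.07, 0.13 and 0.31 in AF2 KO, and 5.40, 5.65 and 5.31 in AF2 WT. In MISS KO they were 4.34, 4.79 and 4.76, and in MISS WT 4.75, 5.16 and 5.15. All 3 were thus called higher in the same 3 genotypes and none in AF2 KO. There, A_55_P2179296 had an unadjusted p of 0.0273 and an adjusted p of 0.227 over all 40336 tested probes (limma).

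**Figure D2:**
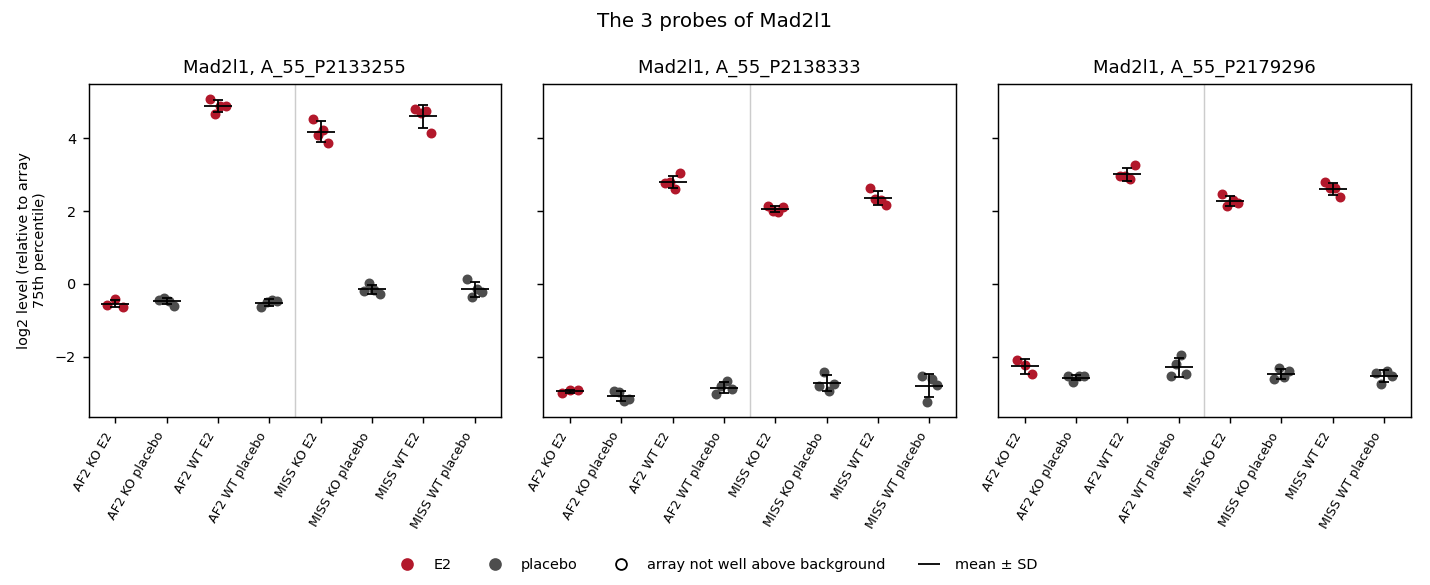
Log2 level of the 3 Mad2l1 probes (panels, y axis) on each array (points) by group (x axis), with the mean and SD of the group. In all 3 the E2 arrays of AF2 WT, MISS KO and MISS WT lie between 1.98 and 5.09, above all placebo and AF2 KO arrays.

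Mad1l1, the partner that holds MAD2 at the kinetochore, rose less, in the same 3 genotypes. Its levels ranged from −0.38 to −0.14 in AF2 KO E2 mice, against −0.02 to 0.06 in AF2 KO placebo mice. In AF2 WT mice they ranged from 0.60 to 1.06 with E2, against −0.21 to 0.49 with placebo. The AF2 KO arrays did not overlap and lay in the opposite direction to those of AF2 WT, but the change of −0.26 ± 0.14 was not called (adjusted p = 0.351 by limma). In AF2 WT it was 0.78 ± 0.13, or 1.72-fold (adjusted p = 1.16e-05). MISS KO mice had 0.94 to 1.36 with E2, against 0.09 to 0.45 with placebo, and MISS WT mice 1.12 to 1.46 with E2, against 0.26 to 0.63 with placebo. The rises were 0.86 ± 0.13 in MISS KO and 0.83 ± 0.13 in MISS WT (adjusted p = 2.59e-06 and 4.44e-06), with no overlap between E2 and placebo arrays.

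Bub3, which brings BUB1 and BUBR1 to the kinetochore, was the least variable of the 6 tested genes, with a pooled SD within groups of 0.10. It lay between 2.62 and 2.72 in AF2 KO E2 mice, against 2.61 to 2.80 in AF2 KO placebo mice. AF2 WT mice had 3.46, 3.47, 3.60 and 3.72 with E2, against 2.57, 2.58, 2.66 and 2.72 with placebo. The groups overlapped in AF2 KO (change −0.05 ± 0.09, adjusted p = 0.848 by limma) and lay 0.74 apart in AF2 WT (0.93 ± 0.08, or 1.90-fold, adjusted p = 1.32e-10). The rise was 0.89 ± 0.08 in MISS KO and 0.98 ± 0.08 in MISS WT (adjusted p = 2.66e-10 and 3.81e-11). After another scaling or in the authors' matrix its change was as low as 0.57 in AF2 WT, 0.57 in MISS KO and 0.54 in MISS WT, and still called.

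Bub1b, which encodes BUBR1, the checkpoint protein that binds the anaphase-promoting complex, fell in the same 3 genotypes. Its levels in AF2 KO mice were −0.91, −0.64 and 0.08 with E2, against −1.17, −0.98, −0.30 and −0.28 with placebo. In AF2 WT mice they were −3.50, −2.74, −2.16 and −1.92 with E2, against −0.60, −0.58, −0.19 and −0.15 with placebo. The AF2 KO arrays overlapped over most of their range, while the AF2 WT arrays lay 1.32 apart. MISS KO mice had −2.91, −2.73, −2.69 and −2.50 with E2, against −0.72, −0.70, −0.68 and −0.27 with placebo. MISS WT mice had −3.17, −3.14, −3.11 and −3.05 with E2, against −0.80, −0.59, −0.29 and −0.25 with placebo. Both MISS genotypes were without overlap. The change was 0.19 ± 0.28 in AF2 KO (adjusted p = 0.797 by limma) and −2.20 ± 0.26 in AF2 WT, which is 4.60-fold lower (adjusted p = 3.61e-08). It was −2.11 ± 0.26 in MISS KO and −2.64 ± 0.26 in MISS WT, 4.33-fold and 6.22-fold lower (adjusted p = 6.65e-08 and 1.11e-09).

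Cenpa, the histone variant that marks the centromere, also fell in these 3 genotypes, with a smaller spread within groups than Bub1b. AF2 KO mice had −1.41, −0.95 and −0.92 with E2, against −1.12, −1.06, −0.98 and −0.82 with placebo. AF2 WT mice had −3.28, −3.08, −2.90 and −2.89 with E2, against −1.24, −1.19, −1.17 and −0.99 with placebo. The lowest AF2 KO E2 array was below its placebo arrays and the other two lay among them. MISS KO mice had −3.13, −2.99, −2.98 and −2.82 with E2, against −1.16, −1.05, −0.89 and −0.81 with placebo. MISS WT mice had −3.28, −3.26, −3.26 and −2.92 with E2, against −1.16, −0.93, −0.91 and −0.85 with placebo. The change was −0.10 ± 0.13 in AF2 KO (adjusted p = 0.780 by limma), −1.89 ± 0.12 in AF2 WT (3.70-fold lower, adjusted p = 2.88e-13), −2.0 ± 0.12 in MISS KO (4.00-fold lower, adjusted p = 7.37e-14) and −2.22 ± 0.12 in MISS WT (4.66-fold lower, adjusted p = 7.38e-15).

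Cenpe, the motor that carries chromosomes to the spindle equator, varied most within groups, with a pooled SD of 0.39. Its levels ranged from −1.0 to −0.49 in AF2 KO E2 mice, against −1.55 to −0.85 in AF2 KO placebo mice, and from −2.71 to −1.88 in AF2 WT E2 mice, against −1.57 to −0.58 in AF2 WT placebo mice. They ranged from −2.47 to −1.38 in MISS KO E2 mice, against −1.17 to −0.51 in MISS KO placebo mice, and from −2.24 to −1.65 in MISS WT E2 mice, against −1.38 to −0.20 in MISS WT placebo mice. Only the AF2 KO arrays overlapped. The change was 0.42 ± 0.29 in AF2 KO (adjusted p = 0.490 by limma). It was −1.35 ± 0.27 in AF2 WT, −1.19 ± 0.27 in MISS KO and −1.21 ± 0.27 in MISS WT (adjusted p = 8.95e-05, 0.000367 and 0.000287).

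**Figure D3:**
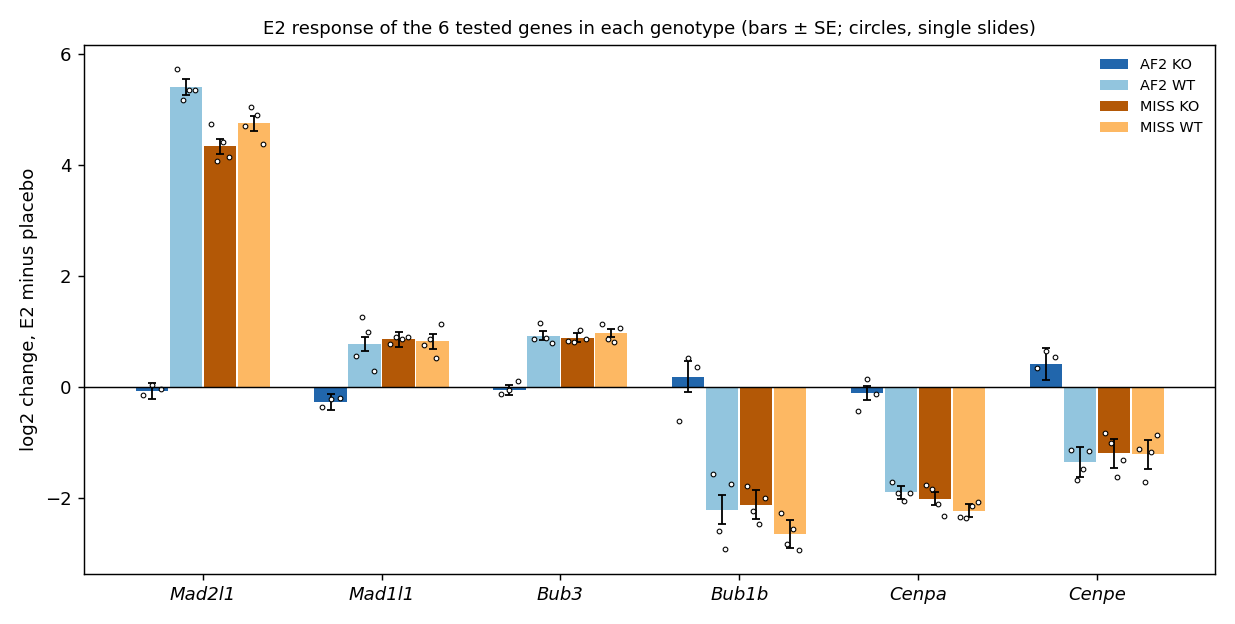
Log2 change with E2 against placebo (y axis) of the 6 tested genes (x axis) in AF2 KO, AF2 WT, MISS KO and MISS WT mice (bars, with the SE of the limma model). Open circles are the E2 minus placebo differences on single slides. Mad2l1 reaches 5.40 in AF2 WT, and the AF2 KO bars lie between −0.26 and 0.42.

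Within single slides the direction held for every gene in AF2 WT, MISS KO and MISS WT. The difference between E2 and placebo on a slide was 5.17 to 5.73 for Mad2l1 in AF2 WT, 4.08 to 4.74 in MISS KO and 4.37 to 5.05 in MISS WT. For Bub1b it was −2.92 to −1.56 in AF2 WT, −2.46 to −1.78 in MISS KO and −2.92 to −2.25 in MISS WT. The smallest such difference was that of Mad1l1 on 1 slide of AF2 WT, at 0.29. In AF2 KO the 3 slides gave −0.14, −0.03 and 0.04 for Mad2l1 and −0.61, 0.36 and 0.54 for Bub1b. For Cenpe they gave 0.34, 0.55 and 0.65, higher with E2 on each, and with the slide as a block in the fit that rise of 0.51 was called (adjusted p = 0.0257 by limma).

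The E2 response of all 6 genes differed between AF2 KO and AF2 WT mice. As the difference between the responses, AF2 KO minus AF2 WT, Mad2l1 gave −5.47 ± 0.20, Mad1l1 −1.04 ± 0.19 and Bub3 −0.98 ± 0.12, all lower (adjusted p = 1.37e-16, 6.22e-05 and 1.28e-07 by limma). Bub1b gave 2.39 ± 0.38, Cenpa 1.79 ± 0.17 and Cenpe 1.77 ± 0.39, all higher (adjusted p = 7.60e-06, 3.47e-09 and 0.000450). Among all genes, 31.4% were called higher and 21.6% lower in this difference. Under E2 alone, AF2 KO mice were 43.1-fold lower than AF2 WT mice in Mad2l1 and 4.25-fold higher in Bub1b, and 3 genes were called higher and 3 lower, against a background of 31.3% and 26.0%. These comparisons share the E2 arrays. Under placebo, AF2 KO and AF2 WT mice differed by −0.31 to 0.15 in the 6 genes, and none was called or passed an unadjusted p under 0.05, against 2.99% of all genes higher and 6.61% lower. This holds for the brightest probe of each gene. The Mad2l1 probes A_55_P2138333 and A_55_P2179296 gave −0.22 and −0.28, the latter with an unadjusted p of 0.0303 (adjusted p = 0.169 by limma).

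The median of all genes in the AF2 KO minus AF2 WT difference was 0.24 in these values, and 0.04 after quantile normalization and 0.02 in the authors' matrix. Bub3 then gave −0.64 and −0.62, and Mad2l1 −5.27 and −5.19, with all 6 genes still called in the same direction.

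No such difference was called in the MISS line. None of the 6 genes was called in the difference MISS KO minus MISS WT (limma), against a background of 0.233% of all genes higher and 0.643% lower. At an unadjusted p under 0.05, 2943 of all genes passed, Mad2l1 among them, with a difference of −0.41 ± 0.19 (95% interval −0.81 to −0.02, adjusted p = 0.435). The intervals were −0.35 to 0.42 for Mad1l1, −0.32 to 0.14 for Bub3, −0.22 to 1.27 for Bub1b, −0.12 to 0.56 for Cenpa and −0.75 to 0.79 for Cenpe. These intervals, each for a single gene and unadjusted, reach beyond a 2-fold difference in Bub1b and stay within it in the other genes. Leaving out single arrays moved the Mad2l1 difference to as low as −0.57.

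Under E2, Mad2l1 was lower in MISS KO than in MISS WT mice by 1.33-fold (−0.41 ± 0.14, adjusted p = 0.115 by limma), a difference that was not called. It was lower on each of the 4 slides, by 0.27 to 0.60, and the other 2 probes gave −0.30 and −0.33. With the slide as a block the adjusted p was 0.0353. Without the lowest MISS WT E2 array, replicate 4, the difference was −0.57 (adjusted p = 0.00845), and without MISS KO E2 replicate 1 it was −0.53 (adjusted p = 0.0335). No other removal of a single array gave a call, and the difference was then as small as −0.31, with adjusted p up to 0.363 (limma). Under the other settings of the fit it ranged from −0.42 to −0.31, with adjusted p up to 0.455. None of the other 5 genes passed in that comparison, in which 0.880% of all genes were higher and 1.98% lower. Under placebo, the 6 genes differed between MISS KO and MISS WT mice by −0.17 to 0.06, with none called and none under an unadjusted p of 0.05, against 0.418% of all genes higher and 0.492% lower.

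Between the wild types, the rise of Mad2l1 was smaller in MISS WT than in AF2 WT by 0.65 ± 0.19 on the log2 scale (adjusted p = 0.0321 by limma), and none of the other 5 genes was called. The background was 6.26% of all genes higher and 3.20% lower. The 3 probes disagreed in size, at −0.65, −0.49 and −0.16, and the mean over them gave −0.43 (adjusted p = 0.0843). Leaving out single arrays gave −0.72 to −0.50, and 6 of these 16 fits were above the threshold. Under placebo, Mad2l1 was 0.36 ± 0.14 higher and Mad1l1 0.35 ± 0.13 higher in MISS WT than in AF2 WT mice (adjusted p = 0.0849 and 0.0902), so that 0 of 6 were called and these 2 passed an unadjusted p under 0.05, against 2.86% of all genes higher and 8.95% lower. With the slide as a block both were called (adjusted p = 0.0313 for Mad2l1 and 0.0291 for Mad1l1 by limma), and Mad2l1 was also called after quantile normalization and in the authors' matrix. The other 2 Mad2l1 probes gave 0.05 and −0.24 in this comparison, and the mean over the 3 gave 0.058 (adjusted p = 0.827), so the value of Mad2l1 rests on its brightest probe. The lines also differ in C57BL6 substrain, which cannot be told apart from the line.

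Bub1, Ttk, Cenpf and Aurkb were too dim to test, with no group in which every array was well above background. Aurkb and Cenpf were well above background on 0 of 31 arrays, Ttk on 1, an AF2 KO E2 array, and Bub1 on 7. Their median levels were −6.56 for Bub1, −7.62 for Ttk, −7.75 for Cenpf and −7.96 for Aurkb. Bub1 passed on 1 of 3 AF2 KO E2 arrays and 2 of 4 AF2 KO placebo arrays, on none of the AF2 WT arrays, on 0 of 4 MISS KO E2 arrays and 1 of 4 MISS KO placebo arrays, and on 0 of 4 MISS WT E2 arrays and 3 of 4 MISS WT placebo arrays. In MISS WT its mean was −6.95 with E2, against −5.51 with placebo. Set against the dimmest signal well above background on each E2 array, or its own signal if brighter, this is 1.39-fold lower with E2. That fold is no strict limit, since a probe not well above background can be brighter than that dimmest signal. Without the filter on dim probes limma gave an adjusted p of 0.00382 there. The same test did not call Bub1 in AF2 KO (0.22, adjusted p = 0.886), AF2 WT (−0.74, adjusted p = 0.143) or MISS KO (−0.48, adjusted p = 0.376). For Ttk, Cenpf and Aurkb no fold is given between E2 and placebo, since neither group had a level well above background or the fold so set did not reach 1.

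**Figure D4:**
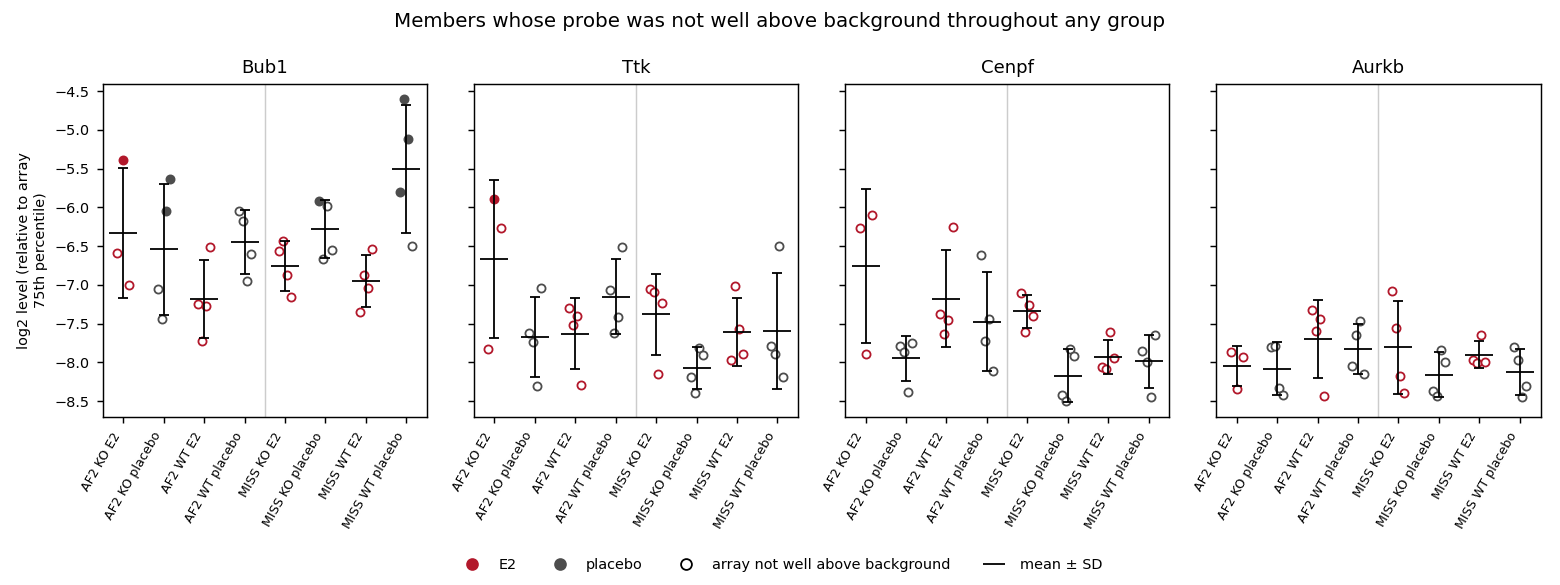
Log2 level (y axis, relative to the 75th percentile of the array) of Bub1, Ttk, Cenpf and Aurkb on each array (points) by group (x axis), with mean and SD. Open points are arrays on which the probe was not well above background, which is all 31 for Cenpf and Aurkb.

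In the kinetochore core, the KMN network that binds microtubules, 10 of 10 listed genes were tested. Its calls and those of the lists that follow are to be read beside the shares of all genes called with E2, which were 3.52% higher and 0.447% lower in AF2 KO, 26.6% and 31.2% in AF2 WT, 28.9% and 28.4% in MISS KO, and 33.5% and 28.1% in MISS WT. With E2, 0 were higher and 0 lower in AF2 KO, 1 higher and 6 lower in AF2 WT, 1 higher and 7 lower in MISS KO, and 2 higher and 7 lower in MISS WT. Nsl1, a subunit of the MIS12 complex, changed by 0.03 ± 0.16 in AF2 KO, −1.25 ± 0.15 in AF2 WT, −1.54 ± 0.15 in MISS KO and −1.24 ± 0.15 in MISS WT. Mis12, which names that complex, went the other way, with −0.01 ± 0.14 in AF2 KO, 0.95 ± 0.13 in AF2 WT, 0.64 ± 0.13 in MISS KO and 0.85 ± 0.13 in MISS WT. The median change of the list was 0.02 in AF2 KO and −0.64 in AF2 WT, beside medians of all genes of 0.07 and −0.09.

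Of the constitutive centromere network and the factors that load CENP-A, 18 of 19 listed genes were tested. With E2, none was called in AF2 KO, 4 were higher and 10 lower in AF2 WT, and 3 were higher and 11 lower in MISS KO and also in MISS WT. Oip5, a subunit of the MIS18 complex that licenses CENP-A loading, changed by 0.07 ± 0.21 in AF2 KO, −1.63 ± 0.20 in AF2 WT, −1.97 ± 0.20 in MISS KO and −2.18 ± 0.20 in MISS WT. Cenpw, a histone-fold protein of the same network, changed by 0.01 ± 0.11, −1.49 ± 0.10, −1.93 ± 0.10 and −1.91 ± 0.10 in the same order. Cenpb, Cenpp and Cenpt were higher in AF2 WT, MISS KO and MISS WT, and Cenpn in AF2 WT.

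Among 14 checkpoint partners and targets of the anaphase-promoting complex, 0 were called in AF2 KO, 3 higher and 5 lower in AF2 WT, 2 higher and 5 lower in MISS KO, and 2 higher and 8 lower in MISS WT. The counts in AF2 WT are near the shares of all genes. Fzr1 and Zw10 were higher in AF2 WT, MISS KO and MISS WT, and Mad2l1bp in AF2 WT. Kntc1 encodes ROD, the part of the RZZ complex that brings MAD1 and MAD2 to kinetochores. Its change was −0.17 ± 0.25 in AF2 KO (adjusted p = 0.804 by limma). It was 11.4-fold lower with E2 in AF2 WT (−3.52 ± 0.23), 10.4-fold lower in MISS KO (−3.38 ± 0.23) and 16.6-fold lower in MISS WT (−4.06 ± 0.23), with adjusted p of 6.14e-13, 1.02e-12 and 2.33e-14. Zwilch, of the same complex, was also called lower in these 3 genotypes, in which its other subunit, Zw10, was higher. Nek2, a centrosome kinase, changed by −0.06 ± 0.44 in AF2 KO (adjusted p = 0.968), −0.97 ± 0.41 in AF2 WT (adjusted p = 0.0452), −0.66 ± 0.41 in MISS KO (adjusted p = 0.177) and −1.63 ± 0.41 in MISS WT (adjusted p = 0.00116).

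The chromosomal passenger complex, in which Aurora B acts, and the proteins that protect centromeric cohesion gave mixed calls among 6 genes. For this list and for the proliferation markers below, the counts in AF2 WT are near the shares of all genes. In AF2 KO, Haspin, the kinase that marks histone H3 for the complex, was called higher and none lower. In AF2 WT, 2 were higher (Birc5 and Haspin) and 2 lower (Cdca8 and Sgo2a), in MISS KO 1 (Birc5) and 1 (Cdca8), and in MISS WT 1 (Birc5) and 2 (Cdca8 and Sgo2a). Birc5, the survivin subunit, was 0.04 ± 0.33 in AF2 KO, 1.86 ± 0.30 in AF2 WT (adjusted p = 6.63e-06), 1.90 ± 0.30 in MISS KO and 1.35 ± 0.30 in MISS WT. Sgo2a, which guards centromeric cohesin, was 0.53 ± 0.57 in AF2 KO (adjusted p = 0.708), −1.31 ± 0.53 in AF2 WT (adjusted p = 0.0359), −1.11 ± 0.53 in MISS KO (adjusted p = 0.0752) and −1.36 ± 0.53 in MISS WT (adjusted p = 0.0276). Proliferation markers, 8 genes, had no call in AF2 KO. In AF2 WT, Birc5, Pcna and Rrm2 were higher and Cdk1 and Mki67 lower, in MISS KO Birc5, Pcna, Rrm2 and Top2a were higher and Cdk1 lower, and in MISS WT Birc5 and Pcna were higher and Ccna2 and Mki67 lower. Pcna, the sliding clamp of DNA replication, was 0.01 ± 0.11 in AF2 KO and higher by 1.35 ± 0.10 in AF2 WT, 1.45 ± 0.10 in MISS KO and 1.54 ± 0.10 in MISS WT. In AF2 KO and AF2 WT, the median change was −0.0016 and −0.65 in the centromere list, −0.03 and −0.21 among the checkpoint partners, 0.26 and −0.11 in the passenger list and 0.02 and 0.07 among the proliferation markers, beside the medians of all genes of 0.07 and −0.09. In the difference MISS KO minus MISS WT, none of the genes of these 5 lists was called, beside 0.233% of all genes higher and 0.643% lower, a background so low that a count of 0 among these lists says little.

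**Figure D5:**
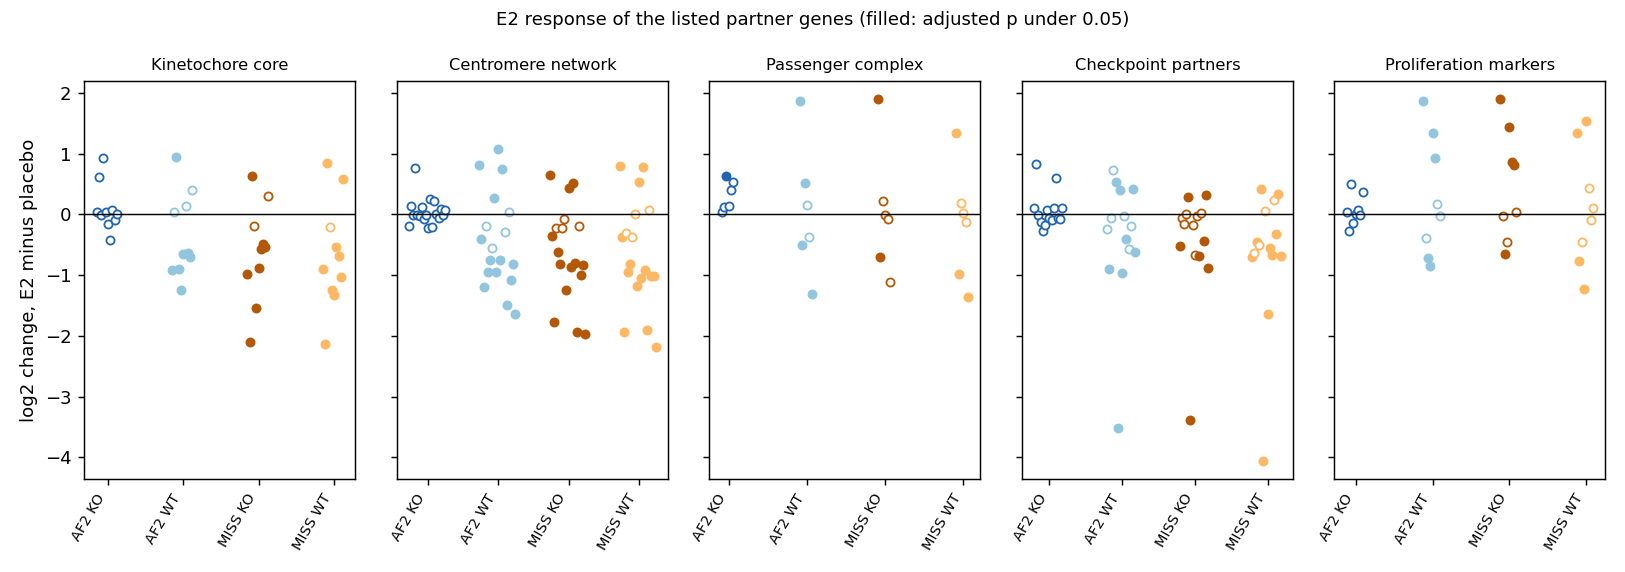
Log2 change with E2 against placebo (y axis) of the tested genes of 5 lists (panels) in AF2 KO, AF2 WT, MISS KO and MISS WT mice (x axis), 1 point per gene, filled where the adjusted p was under 0.05. In AF2 KO a single point, Haspin, is filled, and the lowest points of the other genotypes are Kntc1, down to −4.06.

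Markers of other compartments were also called in the same samples, beside large shares of all genes. With E2 these shares were 3.52% higher and 0.447% lower in AF2 KO, and 26.6% and 31.2% in AF2 WT. They were 28.9% and 28.4% in MISS KO, and 33.5% and 28.1% in MISS WT. Several counts below, such as those of smooth muscle and lymphocytes in AF2 WT, do not exceed them. Of 9 stroma markers, 2 were lower with E2 in AF2 KO, 8 in AF2 WT, 5 in MISS KO and 4 in MISS WT, and none was higher in any of them. The list mean ranged from 4.06 to 4.37 in AF2 KO E2 mice, against 4.53 to 4.96 in AF2 KO placebo mice, and from 3.37 to 3.61 in AF2 WT E2 mice, against 4.35 to 4.65 in AF2 WT placebo mice. It ranged from 3.57 to 4.12 in MISS KO E2 mice, against 4.19 to 4.49 in MISS KO placebo mice, and from 3.66 to 4.06 in MISS WT E2 mice, against 4.22 to 4.72 in MISS WT placebo mice. Of 5 macrophage markers, the 3 genes Adgre1, Cd14 and Csf1r were lower in AF2 WT, MISS KO and MISS WT, Cd68 was higher in AF2 WT and MISS KO, and none was called in AF2 KO. Of 7 smooth muscle markers, 0 were called in AF2 KO, 0 higher and 1 lower in AF2 WT, 4 higher and 1 lower in MISS KO, and 5 higher and 1 lower in MISS WT, the lower one being Smtn each time. No stroma, macrophage or smooth muscle marker was below the detection filter. Of 9 epithelial markers, 0 were called in AF2 KO, 2 higher and 1 lower in AF2 WT, 3 and 3 in MISS KO, and 2 and 3 in MISS WT. Of 6 endothelial markers, 0 were called in AF2 KO, 2 higher and 2 lower in AF2 WT, 2 and 3 in MISS KO, and 2 and 2 in MISS WT. Of 6 lymphocyte markers, 1 was higher in AF2 KO, 0 were called in AF2 WT, and 3 were lower in MISS KO and also in MISS WT. Of 4 tested granulocyte markers, 0 were called in AF2 KO, 1 higher in AF2 WT, 2 higher in MISS KO, and 1 higher and 1 lower in MISS WT. Of 4 adipocyte markers, 1 was lower in MISS WT and none called elsewhere. The adipocyte list mean varied widely between arrays, from −4.35 to 0.77 over all of them and from −4.27 to 0.77 within MISS KO E2 alone. Of 3 tested markers of ovary and oviduct, Inha alone was lower in AF2 WT, MISS KO and MISS WT. The part of these lists in the changes of the checkpoint genes was not tested.

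Between arrays of the same group, the members did not keep 1 pattern of variation over the 31 arrays. Cenpa and Bub1b had a Pearson correlation of 0.51 once group and slide means were removed, and 0.62 with group means alone removed. Other pairs moved with the removal of the slide means: Cenpa and Cenpe had 0.53 with it and −0.22 without it, Bub3 and Mad1l1 0.50 and 0.0057, and Cenpe and Mad1l1 −0.35 and −0.66. The arrays share their scaling, which enters all of these values, and they are descriptions only.

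The genes nearest to the median pattern of the 6 members over the 8 groups were Adat1, Zc3hav1, Lipt1, Olfr94 and Coa6, at a root mean square difference of 0.06 to 0.07. They are flat, with changes of −0.41 to −0.24 in AF2 WT, because rising and falling members cancel in that median. Single members were therefore also compared, a choice made after the values were seen. Nearest to Mad2l1 were Mylk2, which encodes a myosin light chain kinase, at 0.14 and Phyhip at 0.18. Mylk2 changed by 0.42 in AF2 KO, 5.30 in AF2 WT, 4.51 in MISS KO and 4.85 in MISS WT. Nearest to Bub1b was Mbd4, a DNA glycosylase that binds methylated DNA, at 0.05, with changes of 0.18, −2.10, −2.22 and −2.57 in the same order. Nearest to Cenpa were Zfp934 and Hnmt, the histamine N-methyltransferase, each at 0.08.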

How the data were processed

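RNA from uterus was hybridised by the authors to 1-colour (Cy3) Agilent arrays and read out, per the labels, by version 10.10.1.1 of Agilent Feature Extraction. The deposited processed signal is, per the file headers, a background-subtracted intensity, and 0/1 marks and other values give outlier spots and signals well above background. The authors' deposited matrix gives 43753 probes as log2 values, with column medians of 7.56, and each column best matched its own array for 31 of 31 arrays. Limma is named in the submitters' processing notes without a step.

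Outlier spots were left out, log2 signals of a probe's spots were averaged, and each array was centred on its 75th percentile. Probes entered the tests if all arrays of any 1 group had them well above background (40336 of 55681 probes), and a gene was its brightest tested probe (27060 genes). Probe names follow the array annotation, with 27235 probes named through their accession. limma 3.58.1 in R 4.3.3 fitted 8 group means over 31 arrays (23 residual degrees of freedom), with 12 contrasts and Benjamini-Hochberg adjustment over all genes. The fit and its tests were tested on simulated data. With 3 or 4 arrays per group, their number limits the precision. Alternatives were the background correction, scaling, filters, slide block, authors' matrix, probe averaging, samples in the fit and single arrays left out.

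The members and lists were chosen with earlier results of these data known. Named in the text are all members and their tested probes, the 2 largest called changes of each pathway list in AF2 WT, the 5 genes nearest to the members' median pattern and some counts of 5 or fewer. Markers of lymphocytes, granulocytes, adipocytes and endothelium were also counted.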

Additional observations from a re-analysis of the deposited data

Results flagged for a closer look

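In 7 of 56 groups of 4 arrays screened over the 8 tested probes, 1 array was set apart by a gap that was large relative to the range of its group. The gap itself could be small, as for Mad1l1 in AF2 KO placebo mice, with −0.02, 0.05, 0.05 and 0.06. Chance flags about 5% of independent groups, but these groups share arrays and 3 of the probes measure Mad2l1, so no excess over chance can be read from the count. MISS WT E2 replicate 4, on the fourth slide, accounted for 3 of the 7 flagged groups: Mad2l1 was lowest there at 4.15, Mad1l1 highest at 1.46 and Cenpa highest at −2.92. Without that array the E2 changes in MISS WT were 4.91 for Mad2l1, 0.75 for Mad1l1 and −2.31 for Cenpa, and all 6 calls kept their direction. The other 4 arrays lay in placebo groups: Bub1b at −0.27 in MISS KO replicate 3, Cenpe at −1.17 in MISS KO replicate 4, Mad1l1 at −0.025 in AF2 KO replicate 1, and a second probe of Mad2l1 at −2.69 in AF2 KO replicate 2.

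The response to E2 differed between AF2 KO and AF2 WT mice by a test of the difference itself (limma) for Mad2l1 (−5.47), Mad1l1 (−1.04), Bub3 (−0.98), Bub1b (2.39), Cenpa (1.79) and Cenpe (1.77). Between MISS WT and AF2 WT mice it was called different for Mad2l1 alone (−0.65). That call was lost with the mean over its probes (−0.43, adjusted p = 0.0843 by limma) and on some removals of a single array.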

How the results depend on the processing

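Among 576 values of the 6 genes under other settings of the fit, 568 kept their direction and their side of the threshold or stayed uncalled, 2 lost a call, 6 gained one and 0 reversed. Among 702 values with a single array left out, these numbers were 693, 6, 3 and 0. With the slide as a block, 1 gene was called higher with E2 in AF2 KO (Cenpe), 1 lower in MISS KO than in MISS WT under E2 (Mad2l1), and 2 higher in MISS WT than in AF2 WT under placebo (Mad2l1 and Mad1l1). Quantile normalization and the authors' matrix each gave 1 of these placebo calls (Mad2l1). The smaller rise of Mad2l1 in MISS WT than in AF2 WT gave 0 calls with the mean of its probes, and 0 in a fit of only the groups concerned. With single arrays left out, its count ranged from 0 to 1, as did the counts of lower genes in MISS KO against MISS WT under E2 and of higher genes in MISS WT against AF2 WT under placebo. The cause was not tested. Without the filter on dim probes, Bub1 was lower with E2 in MISS WT, Cenpf higher with E2 in MISS KO (adjusted p = 0.0486 by limma) and Ttk higher in AF2 KO minus AF2 WT (adjusted p = 0.0387), though Cenpf was not well above background on any array. Over all genes, E2 in AF2 KO gave 953 higher and 121 lower calls, against 368 and 11 in a fit of only the groups concerned, 459 and 184 after quantile normalization, 519 and 183 in the authors' matrix, 534 and 90 with the strict filter on dim probes, 1811 and 217 with normexp, and 2442 and 495 with the slide as a block. The labels pair no samples by replicate number, and the slide was the one block available. Signals near background limit 4 of the 10 genes.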
